A study of Homo sapiens with 6 samples.

Results

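Peaks of 82-kDa ChAT and SATB1 were described at 35 of the 20007 protein-coding genes of the GENCODE annotation, chosen because their products cleave amyloid precursor protein (APP), bind its cytoplasmic tail, sort it through the cell or take up and degrade amyloid-β (Aβ). A peak was counted for a gene when any base of it lay in the gene body or within 10 kb on either side (hg38), and each peak was counted once. Of these 35 genes, 10 are in the table of APP-related genes in the paper and 25 are not. That table lists genes with a peak in these same data. Over the 4 peak lists, 49 peaks met the rule, and 28 of them were near genes outside that table.

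Chromatin immunoprecipitation followed by sequencing recovers DNA that is cross-linked to a protein, and a peak is a stretch where reads pile up. The cells were SH-SY5Y, a human neuroblastoma line that takes on neuron-like features with retinoic acid. All groups carried stably expressed 82-kDa ChAT, were differentiated with retinoic acid for 3 days and were then treated for 4 h. The 4 groups were 82-kDa ChAT after vehicle (Ham's F-12 media), 82-kDa ChAT after 100 nM Aβ1–42 oligomers, SATB1 after vehicle and SATB1 after 100 nM Aβ1–42 oligomers, with 3 plates of cells for each treatment and 1 library for each group. With 1 library per group there was no replicate error, so treatments are described side by side and no p-value is given. The antibody for 82-kDa ChAT was made in-house against the C-terminus, which other forms of ChAT share. The lists held 8270, 6563, 3065 and 6055 peaks in the order above. The paper gives only a range of reads over its samples, not the number behind each list, so a list with more peaks could not be set against depth. No expression was measured in these files, and the labelled cell line was therefore not checked against markers.

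APP is a membrane protein that is cut along competing routes. Cleavage by α-secretases, proteases of the ADAM family, falls within the Aβ sequence, whereas cleavage by β-secretase followed by the γ-secretase complex releases Aβ. Adaptors of the APBA and APBB families bind the tail of APP, sorting receptors of the VPS10P family carry it between Golgi, endosomes and cell surface, and metalloproteases such as insulin-degrading enzyme break Aβ down. The 82-kDa form of choline acetyltransferase, the enzyme that makes acetylcholine, is found mainly in cell nuclei, and SATB1 is a nuclear protein that holds A- and T-rich DNA at attachment points of the nuclear matrix.

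The DNA under 6 of the peaks shows the kinds of sequence that were recovered at these genes. They are peaks at genes outside the table of the paper. Each had the highest score of its list among the peaks at these genes, or lay within 1 kb of a peak of the other protein. All are on the + strand of hg38, and capitals mark the pattern of 3 to 6 A or T bases, a C, and at least 3 further A or T bases, searched on both strands, that has been used to describe SATB1 sites. The first pair lay in intron 4 of SORCS2, at chr4:7639994-7640139 for 82-kDa ChAT and chr4:7639988-7640125 for SATB1 after vehicle, and the third sequence, also of 82-kDa ChAT after vehicle, lay just beyond them at chr4:7640276-7640427.
SORCS2, 82-kDa ChAT vehicle: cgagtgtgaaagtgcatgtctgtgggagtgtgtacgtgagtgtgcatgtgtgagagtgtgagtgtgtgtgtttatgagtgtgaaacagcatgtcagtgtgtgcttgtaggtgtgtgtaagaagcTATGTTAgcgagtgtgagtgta
SORCS2, SATB1 vehicle: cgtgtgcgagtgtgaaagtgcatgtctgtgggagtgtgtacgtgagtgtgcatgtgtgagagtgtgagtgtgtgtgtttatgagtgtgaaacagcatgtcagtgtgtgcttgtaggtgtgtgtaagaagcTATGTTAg
SORCS2, 82-kDa ChAT vehicle, second peak: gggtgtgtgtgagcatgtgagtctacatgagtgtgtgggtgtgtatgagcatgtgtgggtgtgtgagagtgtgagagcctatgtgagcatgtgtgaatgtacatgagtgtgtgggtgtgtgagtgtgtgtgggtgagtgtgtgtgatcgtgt
These sequences are runs of irregular TG-rich repeats, and G and T made up 71.9%, 72.5% and 78.3% of their bases.

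Next is the other pair shared by both proteins after vehicle, in intron 1 of SORCS3, at chr10:104670912-104671041 for 82-kDa ChAT and chr10:104670915-104671055 for SATB1.
SORCS3, 82-kDa ChAT vehicle: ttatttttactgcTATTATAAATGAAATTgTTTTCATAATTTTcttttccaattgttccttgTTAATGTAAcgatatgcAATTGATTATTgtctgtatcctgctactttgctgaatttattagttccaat
SORCS3, SATB1 vehicle: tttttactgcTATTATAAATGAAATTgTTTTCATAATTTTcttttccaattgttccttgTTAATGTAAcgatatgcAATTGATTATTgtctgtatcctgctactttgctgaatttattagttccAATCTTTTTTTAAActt
In contrast to SORCS2, this stretch was A- and T-rich (74.6% and 75.2% of bases) and held 4 and 5 copies of the pattern.

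Last is a peak of 82-kDa ChAT found after Aβ1–42 upstream of RTN3 (chr11:63672406-63672468).
RTN3, 82-kDa ChAT Aβ1–42: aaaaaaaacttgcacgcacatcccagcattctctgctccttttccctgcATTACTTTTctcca
It is a short stretch with a single copy of the pattern.

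Near the 35 genes there were 16 peaks of 82-kDa ChAT after vehicle and 16 after Aβ1–42, and 6 peaks of SATB1 after vehicle and 11 after Aβ1–42. These numbers were close to those expected from the length of the genes and the density of peaks on their chromosomes, called expected from length below. Multiplying the density of peaks on each chromosome by the length of the windows gave 17.4, 13.4, 5.93 and 12.0 expected peaks. The ratio of observed to expected peaks was therefore 0.921 (exact 95% Poisson interval 0.527 to 1.5) for 82-kDa ChAT after vehicle, 1.19 (0.683 to 1.94) after Aβ1–42, 1.01 (0.371 to 2.20) for SATB1 after vehicle and 0.920 (0.459 to 1.65) after Aβ1–42. All 4 intervals included 1, and they cover the counting error of a single library alone. For all protein-coding genes counted gene by gene, the same ratio was 0.842, 0.950, 0.829 and 1.11. Without peaks that matched an Alu repeat, were rich in the pentamer CATTC or were multi-copy, the ratios were 1.2 (0.619 to 2.09), 1.33 (0.706 to 2.27), 1.80 (0.660 to 3.91) and 2.27 (0.738 to 5.31), from 12, 13, 6 and 5 peaks, beside 0.974, 0.980, 0.983 and 1.01 for all protein-coding genes. These intervals also included 1.

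**Figure D1:**
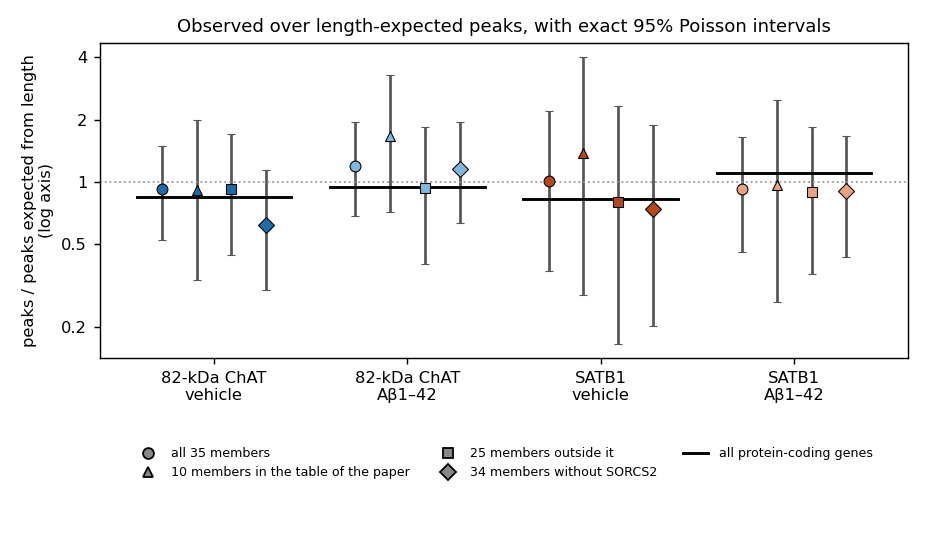
Number of peaks divided by the number expected from gene length (log axis) in each of the 4 lists, for all 35 genes, the 10 in the table of the paper, the 25 outside it and the 34 without SORCS2, with exact 95% Poisson intervals as bars; the black lines are all protein-coding genes. Every interval includes 1, and the triangle for 82-kDa ChAT after Aβ1–42 (1.66) is the highest point. The triangles are genes that the paper listed as having a peak in these data.

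The 35 genes are long, with a median gene body of 88351 nt against 27466 nt for all protein-coding genes. At least 1 peak of 82-kDa ChAT was found for 11 of the 35 genes (31.4%) after vehicle and 12 (34.3%) after Aβ1–42, where length gave 11.2 and 9.84 genes and where 14.2% and 14.9% of all protein-coding genes had a peak. At least 1 peak of SATB1 was found for 5 genes (14.3%) after vehicle and 10 (28.6%) after Aβ1–42, where length gave 5.06 and 9.14 and where 6.29% and 17% of all protein-coding genes had one. The higher shares among these genes than among all genes thus came with numbers that were near those of their length. In any list, 22 genes (62.9%) had a peak, with 20.7 given by length and 37.2% of all protein-coding genes. The 22 include the 10 genes in the table of the paper, which were listed there as having a peak.

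The genes in the table of the paper were longer, with a median of 197408 nt against 84879 nt for the 25 others. At the 10 tabled genes, 6, 8, 3 and 4 peaks were found (82-kDa ChAT vehicle and Aβ1–42, then SATB1 vehicle and Aβ1–42), and 6.54, 4.81, 2.18 and 4.13 were expected. At the 25 others, 10, 8, 3 and 7 peaks were found, and 10.8, 8.59, 3.76 and 7.83 were expected. Their ratios were 0.923, 0.932, 0.799 and 0.894, each with an interval that included 1. By list, 5, 5, 2 and 6 of the 25 had a peak, where length gave 7.02, 6.28, 3.19 and 5.93. In at least 1 list 12 of the 25 had a peak, beside 37.2% of all protein-coding genes. That share is not matched for length, since the median over all protein-coding genes is 27466 nt. The number expected from length in any list was not worked out for these 25, so no excess is read from it.

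**Figure D2:**
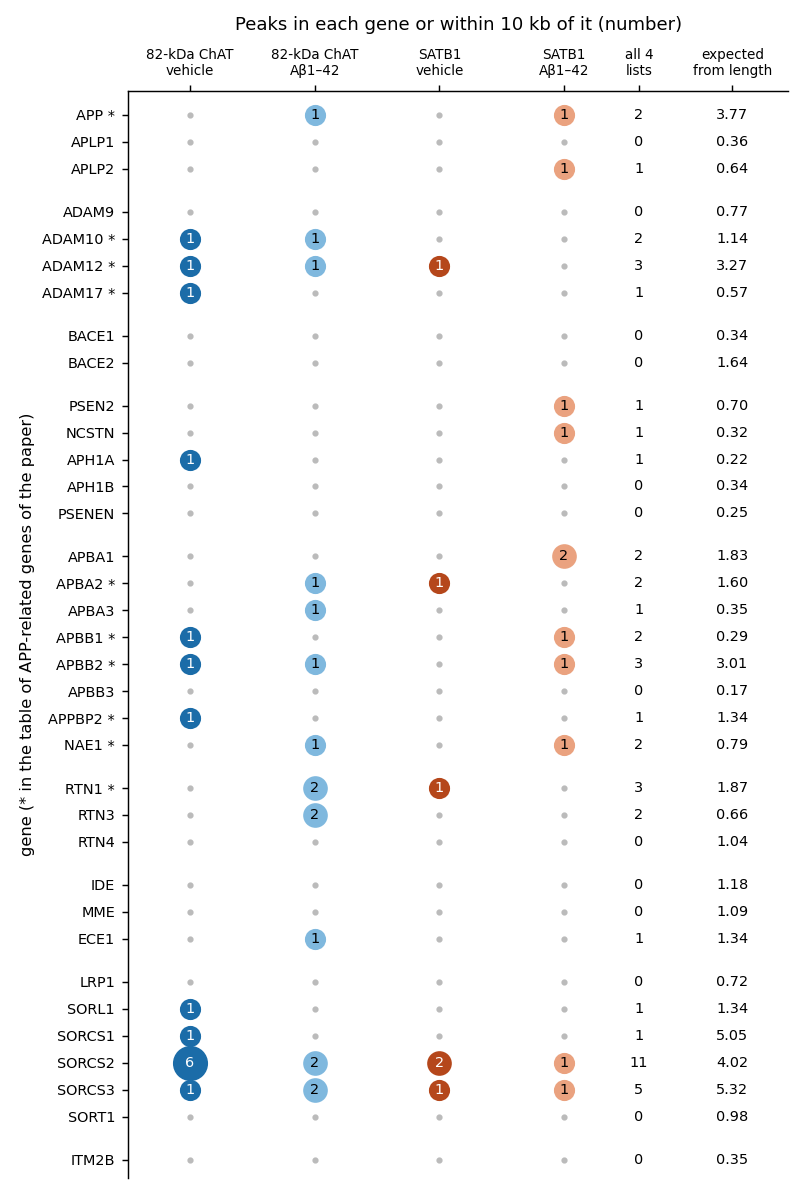
Number of peaks in each of the 35 genes or within 10 kb of it (circles, with the number inside; grey dots are 0), by list, with the total over the 4 lists and the number expected from length at the right. SORCS2 holds 11 of the peaks, and the other genes hold between 0 and 5.

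APP itself had 1 peak of 82-kDa ChAT (score 63.8) and 1 peak of SATB1 (score 71.5), both in intron 13, both after Aβ1–42 and within 1 kb of each other, and none after vehicle. The SATB1 peak matched Alu, the most abundant short repeat of primate genomes, and was multi-copy (58.3% of its 51-base words occurred more than once in the genome); the Alu copy used for all matches came from this place. Scores are −log10 p-values multiplied by 10, are at least 50 by the threshold used, and rank peaks within a list. Over the 4 lists 3.77 peaks were expected at APP, a long gene on chromosome 21, where peaks were dense: RTN1, of similar length, had 1.87 expected. Of its paralogs, which share the cleavage route but not the Aβ sequence, APLP2 had 1 SATB1 peak after Aβ1–42 in intron 1, 2.71 kb from the start of its MANE Select transcript (the reference transcript shared by GENCODE and RefSeq), with a score of 65.2 and an Alu match. APLP1 had no peak in any list.

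The ADAM proteases had 3 peaks of 82-kDa ChAT after vehicle, 2 after Aβ1–42, 1 of SATB1 after vehicle and 0 after Aβ1–42, where 2.08, 1.56, 0.707 and 1.41 were expected. ADAM10, the main α-secretase of neurons, held a peak of 82-kDa ChAT after each treatment, in intron 14 after vehicle (score 59.8) and in intron 1 after Aβ1–42 (score 59.5), 146 kb and 13.3 kb from the transcript start. The same gene was thus counted in both lists for places far apart. The table of the paper gives these introns the other way round, and it lists no SATB1 peak for ADAM12. ADAM12, a metalloprotease first studied in muscle cells, had 3 peaks in 3 introns: 82-kDa ChAT after vehicle in intron 3 (52.2), 82-kDa ChAT after Aβ1–42 in intron 2 (66.3) and SATB1 after vehicle in intron 1 (69.4). For ADAM17, the protease that releases tumour necrosis factor and also cuts APP, the single peak of 82-kDa ChAT after vehicle (52.0) lay in intron 1, 0.753 kb from the start of one of its transcripts. ADAM9 had none.

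No peak of either protein was found at the β-secretases BACE1 and BACE2. Their expected numbers over the 4 lists were 0.340 and 1.64, so that an empty count was not far from what their length gives. The nearest peak to BACE1 was 39134 nt away (82-kDa ChAT, Aβ1–42), and to BACE2 70136 nt away (SATB1, Aβ1–42).

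At the γ-secretase subunits, whose genes range from 1920 nt (PSENEN) to 57543 nt (PSEN2), all 3 peaks lay outside the genes themselves. They were 1 and 0 peaks of 82-kDa ChAT (vehicle, Aβ1–42; 0.541 and 0.520 expected) and 0 and 2 peaks of SATB1 (0.197 and 0.569 expected), and the interval of the last ratio, 0.426 to 12.7, included 1. PSEN2, a catalytic subunit, had a SATB1 peak after Aβ1–42 8768 nt downstream (score 66.7, Alu match), inside a neighbouring gene model. NCSTN, which encodes the substrate-gathering subunit nicastrin, had a SATB1 peak after Aβ1–42 508 nt downstream of the gene (score 66.1, no Alu match). APH1A, a scaffold subunit, had a peak of 82-kDa ChAT after vehicle 9993 nt upstream (score 74.1), inside C1orf54 and only just within the window. APH1B and PSENEN, the remaining scaffold and activating subunits, had none.

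The 8 genes for adaptors and partners of the APP tail held 3 and 4 peaks of 82-kDa ChAT (vehicle, Aβ1–42; 3.05 and 2.67 expected) and 1 and 5 peaks of SATB1 (1.11 and 2.55 expected). The APBA genes encode the X11 or Mint adaptors, which slow the processing of APP. APBA1 had 2 SATB1 peaks after Aβ1–42, both in intron 1 (scores 73.5 and 59.7), and the first of them was the most A- and T-rich of all the peaks near the 35 genes, at 84.0%. APBA2 had a SATB1 peak after vehicle in intron 2 (57.5) and a peak of 82-kDa ChAT after Aβ1–42 (60.6) 7478 nt downstream, inside ENTREP2. The table of the paper places the SATB1 peak in another intron and the 82-kDa ChAT peak in a promoter. At APBA3 there was a peak of 82-kDa ChAT after Aβ1–42 (58.3) 8023 nt downstream, inside TJP3 and with an Alu match.

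The APBB genes encode the Fe65 adaptors, which go to the nucleus with the released tail of APP. APBB1 had a peak of 82-kDa ChAT after vehicle (60.8) 678 nt downstream, inside SMPD1, and a SATB1 peak after Aβ1–42 in intron 1 (53.7). The table of the paper places this 82-kDa ChAT peak in a promoter. APBB2, one of the longest of the 35 genes at 406688 nt, had 82-kDa ChAT after vehicle in intron 1 (53.9), 82-kDa ChAT after Aβ1–42 in intron 6 (66.3) and SATB1 after Aβ1–42 in intron 10 (67.9, Alu match), where 3.01 were expected over the 4 lists. APBB3 had none. Some scores recurred many times within a list, for reasons not known from the files. The 66.3 of ADAM12 and APBB2 was carried by 352 peaks of its list, the 53.9 of APBB2 by 613, the 52.0 of ADAM17 by 237, and scores named below for RTN1 (83.1 and 59.7), SORCS3 (56.6) and RTN3 (93.7) by 220, 133, 178 and 87.

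APPBP2, which links the APP tail to microtubules, had a single peak of 82-kDa ChAT after vehicle in intron 4 (63.4). NAE1, a tail-binding protein that starts the conjugation of NEDD8, had a peak of 82-kDa ChAT in intron 6 (66.2, Alu match) and a SATB1 peak, both after Aβ1–42 and 17611 nt apart. That SATB1 peak had a score of 103, at or above 97.2% of its list. It lay inside the annotated gene but 9.70 kb upstream of the MANE Select transcript. The table of the paper lists no SATB1 peak for NAE1 and places the 82-kDa ChAT peak in another intron. NAE1 and SORCS2 had the only 2 scores over 100 among the 49 peaks.

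Reticulons bind BACE1 and hold down its activity. Those among the 35 genes had 0 peaks of 82-kDa ChAT after vehicle and 4 after Aβ1–42, with 1.09 and 1.10 expected. They had 1 and 0 peaks of SATB1, with 0.533 and 0.835 expected. The ratio for 82-kDa ChAT after Aβ1–42 was 3.62, and its interval of 0.987 to 9.27 included 1. RTN1 held 2 of these peaks, in intron 3 (72.7) and intron 1 (83.1), and the SATB1 peak after vehicle in intron 1 (59.7). RTN3 held the other 2, the printed sequence 8978 nt upstream of the gene (93.7) and a peak in intron 1 (54.2). The score of 93.7 was at or above 90.4% of its list. RTN4, which encodes Nogo, had none although 1.04 were expected over the 4 lists.

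Of the enzymes that degrade Aβ, only ECE1 (endothelin-converting enzyme) had a peak, of 82-kDa ChAT after Aβ1–42 in intron 17 (61.2), 0.709 kb from the start of one of its transcripts, with an Alu match and 63.3% of its 51-base words found more than once in the genome. IDE (insulin-degrading enzyme) and MME (neprilysin), the best known of them, had none, with 1.18 and 1.09 expected over the 4 lists. The nearest peaks were 22899 nt from IDE (82-kDa ChAT, vehicle) and 32232 nt from MME (SATB1, Aβ1–42).

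Sorting and uptake receptors held the most peaks, 9 and 4 of 82-kDa ChAT (vehicle, Aβ1–42) and 3 and 2 of SATB1, where 6.32, 4.78, 2.11 and 4.21 were expected. The SorCS receptors, which belong to the VPS10P family, are encoded by the 3 longest of the 35 genes and held 17 of these 18 peaks. SORL1, the sorting receptor that returns APP to the Golgi, had 1 peak of 82-kDa ChAT after vehicle in intron 3 (57.9). SORCS1 had 1 peak of 82-kDa ChAT after vehicle in intron 1 (58.8), where 5.05 were expected over the 4 lists. LRP1, an uptake receptor for Aβ, and SORT1 (sortilin) had none, and neither had ITM2B, whose product BRI2 slows APP cleavage. For LRP1 a peak of 82-kDa ChAT after Aβ1–42 lay 14917 nt from the gene, just outside the window.

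SORCS2 stood apart in number. It had 6 peaks of 82-kDa ChAT after vehicle, 2 after Aβ1–42, 2 of SATB1 after vehicle and 1 after Aβ1–42, with 1.31, 1.28, 0.523 and 0.911 expected. The total of 11 was 2.74 times the 4.02 expected, and 0.185% of all protein-coding genes had at least as many. Among the 269 protein-coding genes at least as long, 30 (11.2%) had at least as many, and the median was 5. Without SORCS2, the ratio of the remaining 34 genes was 0.623 (0.299 to 1.14) for 82-kDa ChAT after vehicle, 1.15 after Aβ1–42, and 0.739 and 0.905 for SATB1.

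The 82-kDa ChAT peaks of SORCS2 after vehicle came in clusters. In intron 2, 3 of them (scores 53.5, 81.2 and 67.3) lay with gaps of only 276 and 312 nt between them, and 2 others (117 and 68.7) lay in intron 4 with a gap of 136 nt. Counted as regions within 1 kb, all peaks of 82-kDa ChAT after vehicle near the 35 genes came to 13 in place of 16, against 14.5 expected for such regions. The intron 2 peaks were made of local repeats: 53.6%, 65.5% and 31.0% of their 51-base words occurred again within 10 kb. Those words had up to 9, 9 and 7 copies, and no more copies in the whole genome than within that distance. Another peak, in intron 1 (85.0), was of the same kind with 67.3% of its words, as was the peak of SORL1 with 73.0%. These 5 peaks, all of 82-kDa ChAT after vehicle, were the only ones of the 47 examined outside APP with words repeated within 10 kb. How such repeats affect the mapping of reads was not tested.

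**Figure D3:**
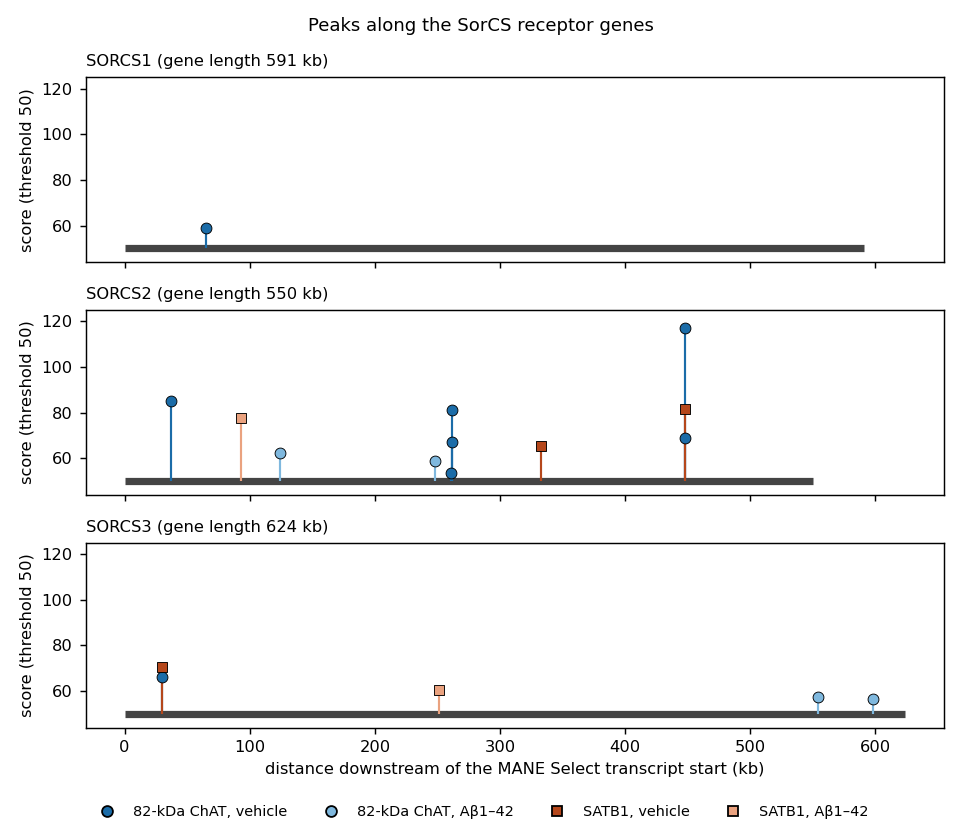
Peaks along SORCS1, SORCS2 and SORCS3, by distance downstream of the MANE Select transcript start in kb (grey bar, gene) and by score, with the calling threshold of 50 as the base line; circles are 82-kDa ChAT, squares SATB1, dark symbols vehicle and light symbols Aβ1–42. SORCS2 shows 82-kDa ChAT clusters at 262 kb and 448 kb, the second with a SATB1 peak, and SORCS3 shows the shared vehicle position at 29.7 kb.

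In intron 4 of SORCS2 the strongest 82-kDa ChAT peak after vehicle and a SATB1 peak after vehicle shared 132 nt, as printed above. Their scores of 117 and 81.6 were at or above 91.1% and 82.3% of their lists. In intron 1 of SORCS3 the peaks of both proteins after vehicle (66.2 and 70.4) shared 127 nt. No peak of either protein after Aβ1–42 lay within 1 kb of these places. SORCS3 had 2 other peaks of 82-kDa ChAT, both after Aβ1–42, in introns 14 and 20 (57.6 and 56.6), and a SATB1 peak after Aβ1–42 in intron 2 (60.4, Alu match), and its total of 5 was near the 5.32 expected. Elsewhere in SORCS2, peaks of 82-kDa ChAT after Aβ1–42 lay in introns 1 and 2 (62.2 and 58.7), a SATB1 peak after vehicle in intron 2 (65.5) and the Alu-matching SATB1 peak after Aβ1–42 in intron 1 (77.5).

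Within a treatment, 2 of the 16 peaks of 82-kDa ChAT near the 35 genes after vehicle (12.5%) overlapped a SATB1 peak, those of SORCS2 and SORCS3, against 9.12% of the whole list. Taken from SATB1, these were 2 of 6 (33.3%), against 23.1% of its list. After Aβ1–42 none of the 16 and 11 peaks overlapped, where 3.51% and 3.65% of the lists did, and the pair in APP was the only one within 1 kb (6.25% of the 16 and 9.09% of the 11, against 5.01% and 4.70% of the lists). Sharing at the level of genes was wider. Peaks of both proteins were found after vehicle at 3 genes (ADAM12, SORCS2 and SORCS3; 2.68 from length, 2.97% of all protein-coding genes) and after Aβ1–42 at 5 (APP, APBB2, NAE1, SORCS2 and SORCS3; 3.79 from length, 4.38% of all).

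Between treatments the peaks near the 35 genes were at different places, as were most peaks of the whole lists. None of the 16 peaks of 82-kDa ChAT after vehicle lay within 1 kb of one after Aβ1–42, where 8.46% of that list did, and none of the 6 SATB1 peaks did, where 2.32% did. With 16 and 6 peaks, this absence was close to the low shares of the lists. Counted by gene, 5 had 82-kDa ChAT peaks after both treatments (ADAM10, ADAM12, APBB2, SORCS2 and SORCS3), with 4.79 given by length and 4.2% of all protein-coding genes. For SATB1 these were 2 genes, SORCS2 and SORCS3, with 2.10 given by length and 1.99% of all. The same 2 genes were those with a peak in all 4 lists, with 0.839 given by length and 0.635% of all protein-coding genes.

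Most of the 49 peaks lay in introns. Of the 42 inside a gene body, 41 lay in an intron of the MANE Select transcript and 1, that of NAE1, upstream of it, and none touched an exon of any transcript of its gene. Of the 47 peaks outside APP, only 2, those of ADAM17 and ECE1, lay within 2 kb of a transcript start of their gene. Scores were like those of the whole lists, with medians of 62.1, 61.7, 67.4 and 66.7 against 67.4, 63.4, 65.8 and 66.4.

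Alu matches were found for 0 of 16 and 3 of 16 peaks of 82-kDa ChAT (vehicle, Aβ1–42) and for 0 of 6 and 6 of 11 peaks of SATB1, that is 0%, 18.8%, 0% and 54.5%, against 5.17%, 9.88%, 5.10% and 74.7% of the whole lists. With 16 and 6 peaks, the absence of Alu matches after vehicle was close to the low shares of those lists. No peak was rich in the pentamer CATTC (at least 3 for every 100 nt), which marked 16.0%, 4.19%, 6.83% and 1.66% of the whole lists. In all, 36 of the 49 peaks had no Alu match, were not pentamer-rich and did not have over 50% of their 51-base words repeated in the genome. By list these were 12 of 16 (75%), 13 of 16 (81.2%), 6 of 6 and 5 of 11 (45.5%), against 64.8%, 76.4%, 61.7% and 16.7% of the whole lists.

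The A- and T-run pattern marked in the printed sequences was found in 7 of 16 (43.8%) and 11 of 16 (68.8%) peaks of 82-kDa ChAT and in 5 of 6 (83.3%) and 8 of 11 (72.7%) peaks of SATB1. In the whole lists it was found in 67.0%, 64.4%, 71.3% and 70% of peaks, and in 78.7%, 72.9%, 77.7% and 78.5% of all genomic windows as long as the median peak of each list. The pattern is thus common enough that most stretches of this length hold it. TCCAT or TCCCAT, searched on both strands, was found in 1, 4, 1 and 1 of the peaks (6.25%, 25%, 16.7% and 9.09%), against 41.2%, 31.1%, 37.4% and 18.2% of the lists and 33.7%, 28.4%, 32.7% and 33.6% of windows. A tandem repeat of CATTC also holds TCCAT, so these searches overlap.

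**Figure D4:**
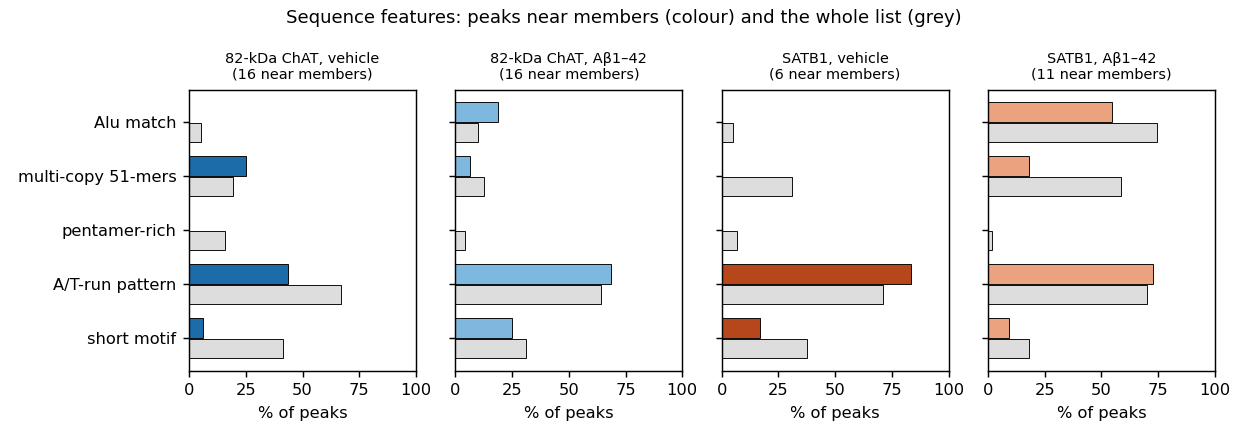
Share of peaks in percent with each sequence feature, for peaks near the 35 genes (colour) and for all peaks of the same list (grey), in the 4 lists; the A/T-run pattern and the short motif are those spelled out in the text. The bars for SATB1 after Aβ1–42 show Alu matches in 54.5% of peaks near the 35 genes and 74.7% of the list.

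A further 28 genes of the same pathways were looked up for comparison, among them low-density lipoprotein receptors, retromer subunits and other proteases. Of these, 11 (39.3%) had a peak in any list, with 11.5 expected from length and 37.2% of all protein-coding genes, and 13, 6, 5 and 4 peaks were found in the 4 lists, where 12.4, 11.6, 5 and 11 were expected. LRP1B, an extremely long receptor gene related to LRP1, held 5, 3, 2 and 1 of them, with 3.99, 3.73, 1.65 and 3.08 expected. DAB1, the gene of an adaptor that binds APP and reelin receptors, held 1, 2, 1 and 1, with 4.24, 4.09, 1.62 and 4.25 expected. Without these very long genes, 7, 1, 2 and 2 peaks were found and 4.13, 3.82, 1.73 and 3.63 were expected. The interval of the 4 SATB1 peaks after Aβ1–42 over all 28 genes, 1.09 to 10.2, lay below the 11 expected. LRP1B and DAB1 made up 3.08 and 4.25 of that number. Without them the interval was 0.242 to 7.22, which included the 3.63 expected. RTN2, the reticulon not among the 35, had 2 peaks of 82-kDa ChAT after vehicle and 0 after Aβ1–42, with 0.0902 and 0.0922 expected. From vehicle to Aβ1–42 its counts thus ran opposite to those of RTN1 and RTN3. At a gene this short, a count of 0 cannot by itself show whether the numbers of RTN1 and RTN3 recur.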

How the data were processed

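There were 4 deposited peak lists, 1 for each library, with positions on hg38 and a score for each peak. The authors mapped reads with BWA, named in the submitters' processing notes, used MACS with a p-value limit of 1e-05 to call peaks, and subtracted peaks of the matching input. The score they deposited is the −log10 p-value multiplied by 10, and the lowest score was 50.01 to 50.02 in the lists. The reads, their numbers and the 2 input samples were not analysed here.

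Gene bodies came from GENCODE 44 and intron numbers from MANE Select transcripts. Positions are counted from 1. Expected numbers were, for each gene and list, the peaks on its chromosome times the window length plus the mean peak length less 1, over the determined bases of the chromosome. The expected number of genes with a peak took peaks as Poisson distributed and lists as independent. Intervals are exact Poisson or Clopper-Pearson intervals at 95% and cover counting error only. Counts over whole lists used chromosomes 1 to 22, X and Y, except the numbers of peaks and the scores of the lists. Alu matches came from blastn at an e-value of 1e-05 against an Alu copy of 287 nt in APP, and peaks were multi-copy when over 50% of their 51-base words occurred more than once in the genome. The tools were blastn 2.17.0 and, under Python 3.11.15, scipy 1.17.1, pandas 2.3.3, numpy 2.4.6, numba 0.67.0, pysam 0.24.0 and matplotlib 3.10.9. The counting and the expected numbers were tested on simulated data.

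Every gene of the 35 with a peak was named with each peak, and those without once. Sequences were printed by the rule given with them, for peaks of at most 300 nt outside chromosome 8 and untranslated regions. For APP, peak positions and bases are left out, and 1 other sequence that met the rule is not reported here. The genes, the 28 further genes and the tests were chosen with earlier results of these data known. Alternatives covered the window, the score, the part of the peak, the density, the genes used and repeats.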

Additional observations from a re-analysis of the deposited data

Results flagged for a closer look

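For the γ-secretase subunits, peaks of 82-kDa ChAT went from 1 after vehicle to 0 after Aβ1–42 and peaks of SATB1 from 0 to 2, so that the counts of both proteins went in opposite directions, with a SATB1 change minus 82-kDa ChAT change of 3. Expected from length were 0.541 and 0.520 for 82-kDa ChAT and 0.197 and 0.569 for SATB1, whose list was longer after Aβ1–42. For the reticulons among the 35 genes, peaks of 82-kDa ChAT went from 0 to 4 and those of SATB1 from 1 to 0. The SATB1 change minus the 82-kDa ChAT change was -5. Here 1.09 and 1.10, and 0.533 and 0.835, were expected. RTN2, a reticulon not among the 35, had 2 peaks of 82-kDa ChAT after vehicle and 0 after Aβ1–42. Each direction rests on 1 library per protein and treatment, and neither difference was tested.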

How the results depend on the processing

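Values are given in the order 82-kDa ChAT vehicle, 82-kDa ChAT Aβ1–42, SATB1 vehicle and SATB1 Aβ1–42. Of 48 ratios under the alternatives, 47 stayed within the interval of the reported ratio. The exception was SATB1 after Aβ1–42 without peaks that match Alu, are rich in CATTC or are multi-copy, where 5 peaks at 4 genes were left against 2.20 expected, a ratio of 2.27 (0.738 to 5.31), beside 1.01 for all protein-coding genes in that setting; the cause was not tested. The other ratios in that setting were 1.2, 1.33 and 1.80. Counts that moved by over 1.5 times mostly followed from using fewer peaks or genes. With scores at or above the list median, 5, 7, 3 and 6 peaks at 2, 6, 3 and 6 genes remained, and the first ratio was 0.571 (0.185 to 1.33). The 25 genes outside the table had 10, 8, 3 and 7 peaks at 5, 5, 2 and 6 genes. Without the 5 longest genes there were 6 peaks of 82-kDa ChAT at 6 genes after vehicle and 10 after Aβ1–42, and 2 SATB1 peaks at 2 genes after vehicle, with ratios of 0.617, 1.29, 0.593 and 1.12. A window of 50 kb gave 21 SATB1 peaks at 18 genes after Aβ1–42. Without SORCS2, a setting chosen after seeing the data as was the count of regions within 1 kb, 10 peaks of 82-kDa ChAT after vehicle were left. With the density taken over the windows of protein-coding genes, the ratios were 1.22, 1.25, 1.21 and 0.798. No replicates could be left out and no paired analysis was possible because each group was 1 library. The small counts limit what can be seen: with 6 SATB1 peaks after vehicle, the interval of the ratio ran from 0.371 to 2.20.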
